A study of Mus musculus with 12 samples.

Results

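The 10 genes described here make fatty acids and place double bonds in them: the regulators Srebf1 and Thrsp, the supply enzymes Acly and Me1, the carboxylase Acacb, the synthase Fasn, the elongases Elovl5 and Elovl6, and the desaturases Scd1 and Scd2. They are 10 of the 12394 genes that the array annotation names through a probe set with a single symbol. Every probe set whose only symbol was 1 of the 10 names was taken, which gave 21 of the 22690 probe sets in the deposited table. Of the 21, 18 were among the 13575 probe sets that were tested, those with a mean signal above 28.4 over the arrays, and each of the 10 genes kept at least 1. The other 3, Acly 1439445_x_at, Acly 1438389_x_at and Elovl6 1417403_at, lay below that level and were not tested.

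Quadriceps muscle of C57Bl/6J mice was measured on 12 arrays, 3 in each of 4 groups, and each array held RNA pooled from 3 mice of its group. The combination group, labelled GW + Exercise, ran on a treadmill and received GW1516 at 5 mg/kg per day. The GW group received the same dose and stayed sedentary, the exercise group ran on the treadmill and received vehicle, and the vehicle group was sedentary and received vehicle. Each regimen lasted 4 weeks. GW1516 is a synthetic agonist of PPARδ, a nuclear receptor that binds fatty acids and turns on genes of fat burning in muscle. The age and sex of the mice are not given in the sources used here, and p-values measure the spread between pools, not between mice. Whether the 3 pools of a group hold separate mice is not stated in the labels.

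Fatty acid synthesis starts in the cytosol, where ATP citrate lyase (Acly) splits citrate to acetyl-CoA and malic enzyme (Me1) supplies reducing power. Acetyl-CoA carboxylases make malonyl-CoA, fatty acid synthase (Fasn) builds palmitate from it, elongases lengthen the chain, and stearoyl-CoA desaturases (Scd1, Scd2) turn saturated chains into monounsaturated ones. Liver and fat are the main sites of the pathway, whereas in muscle the malonyl-CoA made by Acacb is best known as a brake on the entry of fatty acids into mitochondria.

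Signals are in the linear units of the deposited table and were compared between arrays for the same probe set only. Array medians ranged over 48.4 to 57.2, and 27 bacterial control probe sets set a background level of 23.5, their 95th percentile. Of the 18 probe sets tested, each exceeded that level on all 12 arrays except Elovl6 1417404_at, which did on 11. Skeletal muscle markers (Ckm, Acta1, Myh4, Mb, Tnnt3) summed to 80334 to 91035 in combination arrays, 72772 to 93202 in GW arrays, 90326 to 93789 in exercise arrays and 75214 to 77450 in vehicle arrays. All 5 markers were above background on every array. Endothelial, macrophage and Schwann cell markers overlapped between combination and vehicle arrays. Liver markers summed to 39.3 to 89.6 in combination arrays against 217 to 500 in vehicle arrays. GW and exercise arrays also lay below vehicle there, at 82.2 to 129 and 30.3 to 91.4. Blood cell markers summed to 55.0 to 108 in combination arrays and 61.7 to 77.1 in GW arrays. In exercise and vehicle arrays they summed to 27.9 to 58.0 and 16.8 to 54.7. No liver or blood cell marker was above background on all arrays.

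Combination arrays 2 and 3 stood apart in markers of fat cells. Adipoq, the hormone adiponectin made by fat cells, had signals of 270, 1049 and 1471 in combination arrays 1, 2 and 3, against 248, 346 and 363 in GW arrays, 283, 338 and 334 in exercise arrays and 331, 210 and 365 in vehicle arrays. Of the 11 fat cell markers listed, 9 had a probe set, and their summed signal was 1860, 4870 and 7581 in combination arrays 1, 2 and 3, against 2142 to 2464 in GW arrays, 2190 to 2607 in exercise arrays and 1841 to 2574 in vehicle arrays. Combination array 1 lay within the vehicle range of this sum. Of the 5 markers tested, by the probe set with the highest signal, Adig alone exceeded every vehicle array there, at 49.1 against 11.8 to 19.5, and it read 29.7 to 52.7 in exercise arrays. A weaker probe set of Fabp4 also did, at 137 against 81.6 to 127. No defining marker of the 9 was at 0, and 4 were above background on all arrays. The brown fat markers Ucp1 and Cidea summed to 4.76, 118 and 307 in combination arrays 1, 2 and 3. In the other groups the sum was at most 31.2 with GW, 48.2 with exercise and 18.7 with vehicle. Cidea is also among the 11 fat cell markers, and the sum does not separate the 2 genes. Neither gene was above background on all arrays. Quadriceps was sampled whole, so for each gene more cells of a type and more RNA per cell cannot be told apart, in muscle fibres as in fat cells.

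Of the 10 genes, Scd1, Fasn, Acly, Thrsp and Elovl6 were highest in combination array 3 and next highest in combination array 2, the same order as Adipoq. Scd2 and Srebf1 were highest in combination array 1. Acacb, Me1 and Elovl5 differed little between groups. In the test of the combination against vehicle, Scd1 and Fasn rose, and over both drug groups together Scd1 and Scd2 rose. Of the 12 fits that left out 1 array, the first comparison lost the calls of Scd1 in 3 and that of Fasn in 8, and the second lost Scd1 in 9 and Scd2 in 10.

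**Figure D1:**
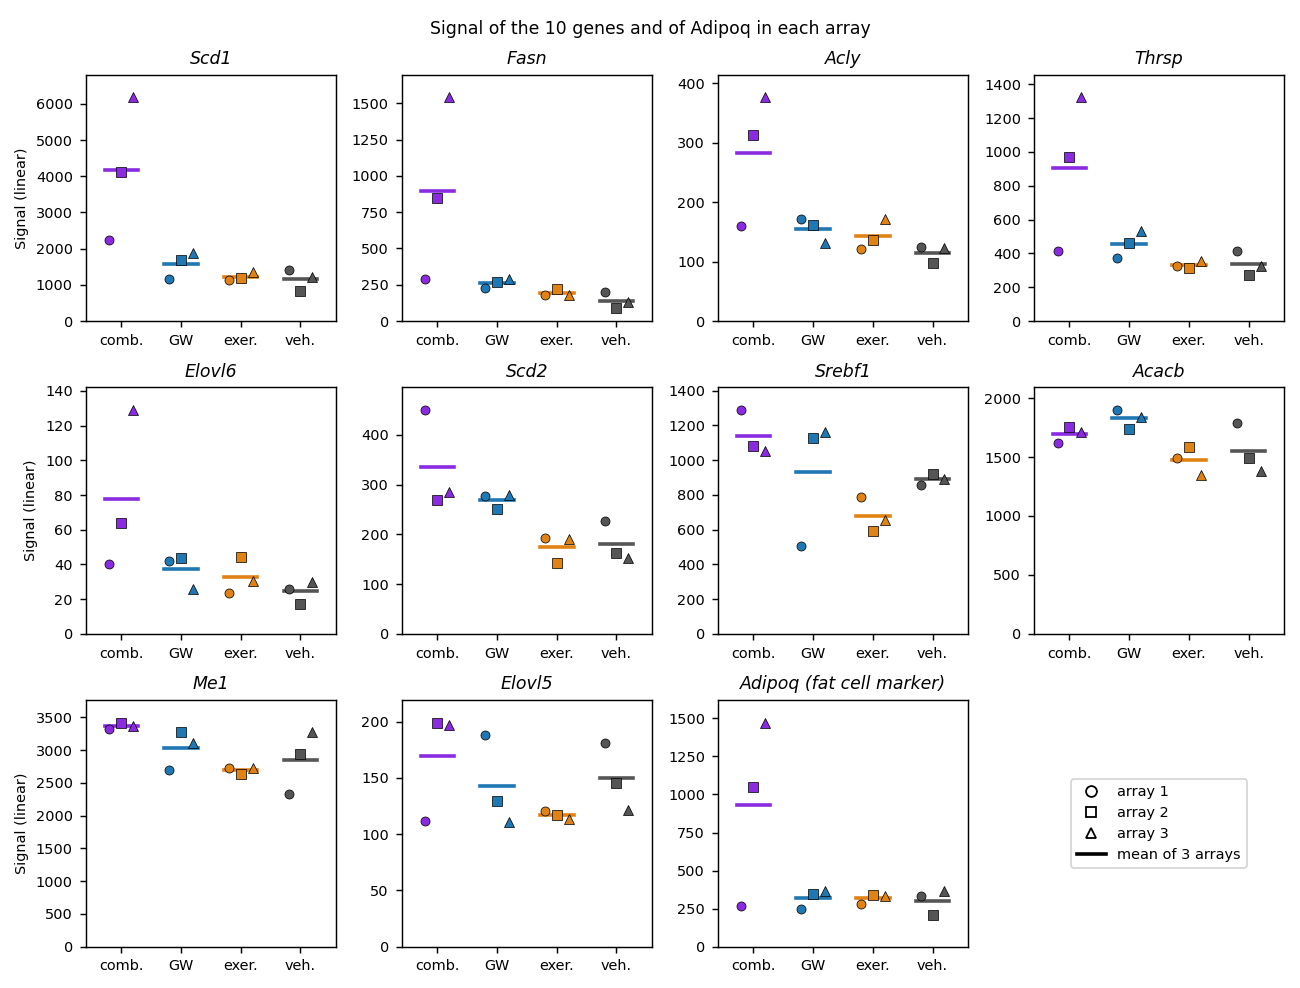
Signal of the 10 genes and of Adipoq on each array, for the probe set of each gene with the highest mean signal, on linear axes that start at 0. Points are single arrays, bars are means of 3 arrays, and groups run from the combination on the left to vehicle on the right. Combination arrays 2 and 3 lie far above all others for Scd1, Fasn, Thrsp and Adipoq, while combination array 1 is the highest point for Scd2 and Srebf1.

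The promoters of Fasn, Acly, Thrsp and Elovl6 are shown because these genes had the same order of combination arrays. The table of RefSeq sequences used here matched 8 of the 10 genes in 11 windows, and Scd1 and Scd2 were not among them. Each window runs from 250 bases before to 50 after the annotated start of a transcript, 5′ to 3′ on the gene's strand. Capitals mark every match on either strand to CCAAT (the CCAAT box), to TCACNC (the core of the sterol regulatory element), to CACGTG (an E-box) or to GGGCGG (a GC box), motifs picked with the sequences in view.
Fasn, chr11:120824498-120824797, minus strand, GRCm38.p6: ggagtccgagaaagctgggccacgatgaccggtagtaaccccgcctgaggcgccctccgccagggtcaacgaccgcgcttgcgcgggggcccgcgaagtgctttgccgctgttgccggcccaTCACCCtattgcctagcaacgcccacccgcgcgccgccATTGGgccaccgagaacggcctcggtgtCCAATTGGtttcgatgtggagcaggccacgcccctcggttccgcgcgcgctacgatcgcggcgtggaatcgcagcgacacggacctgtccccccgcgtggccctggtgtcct
Acly, chr11:100527951-100528250, minus strand, GRCm38.p6: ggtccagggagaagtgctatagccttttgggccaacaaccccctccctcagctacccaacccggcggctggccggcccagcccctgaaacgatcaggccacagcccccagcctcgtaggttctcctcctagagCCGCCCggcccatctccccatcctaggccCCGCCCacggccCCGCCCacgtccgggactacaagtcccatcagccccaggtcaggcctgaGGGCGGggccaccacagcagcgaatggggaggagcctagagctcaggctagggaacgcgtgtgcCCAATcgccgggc
Thrsp, chr7:97417501-97417800, minus strand, GRCm38.p6: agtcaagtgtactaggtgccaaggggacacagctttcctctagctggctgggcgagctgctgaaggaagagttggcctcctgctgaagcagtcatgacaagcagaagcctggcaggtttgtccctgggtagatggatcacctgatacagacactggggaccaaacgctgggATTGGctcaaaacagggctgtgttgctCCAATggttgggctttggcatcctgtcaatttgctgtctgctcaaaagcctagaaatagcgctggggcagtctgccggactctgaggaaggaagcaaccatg
Elovl6, chr3:129532136-129532435, plus strand, GRCm38.p6: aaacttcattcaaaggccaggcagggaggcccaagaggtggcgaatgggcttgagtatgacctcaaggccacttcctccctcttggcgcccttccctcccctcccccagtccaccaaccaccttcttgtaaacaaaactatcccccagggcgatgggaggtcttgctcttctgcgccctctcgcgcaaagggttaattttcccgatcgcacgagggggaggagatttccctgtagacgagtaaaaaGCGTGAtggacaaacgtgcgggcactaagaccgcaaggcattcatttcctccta
The Fasn window held 3 matches to CCAAT, of which the 2 nearest the start overlap on opposite strands, and 1 to TCACNC. The Acly window held 1 match to CCAAT and 4 to GGGCGG, the Thrsp window 2 to CCAAT, and the Elovl6 window 1 to TCACNC. Over all 32851 windows of the table, 37.4% held CCAAT, 43.2% TCACNC, 7.15% CACGTG and 35.7% GGGCGG, and of the 11 windows of the 10 genes 8, 5, 1 and 4 did. A match describes the letters only.

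Srebf1 encodes the transcription factor SREBP1, which turns on lipogenic genes in response to insulin. Its probe set 1426690_a_at had signals of 1290, 1081 and 1051 in combination arrays, 508, 1126 and 1162 in GW arrays, 787, 591 and 655 in exercise arrays and 859, 923 and 890 in vehicle arrays. All combination arrays lay above all vehicle and exercise arrays, and GW array 1 was the lowest of the 12. The log2 difference of the combination was 0.35 ± 0.23 from vehicle (standard error; limma adjusted p = 0.646) and 0.76 ± 0.23 from exercise (adjusted p = 0.326). The order of the group means was combination, 1141 ± 130, then GW, 932 ± 367, vehicle, 890 ± 31.9, and exercise, 678 ± 99.9 (SD, n = 3 arrays each). GW overlapped its neighbours on both sides, and vehicle lay above exercise on every array.

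Thrsp, also called Spot 14, is a small protein induced by thyroid hormone and carbohydrate that goes with lipogenesis in liver and fat. Its probe set 1424737_at read 414, 970 and 1325 in combination arrays, 371, 461 and 531 in GW arrays, 324, 316 and 354 in exercise arrays and 411, 271 and 327 in vehicle arrays. The second probe set, 1422973_a_at, read 202, 367 and 470 in combination arrays, 130, 168 and 236 in GW arrays, 176, 187 and 187 in exercise arrays and 160, 123 and 155 in vehicle arrays. Combination array 1 was only just above the highest vehicle array by the first probe set. The log2 differences of the combination from vehicle were 1.29 ± 0.30 and 1.17 ± 0.27 (adjusted p = 0.147 and 0.130), and neither passed.

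Acly was measured by 3 tested probe sets. By 1451666_at it read 160, 312 and 377 in combination arrays, 171, 161 and 131 in GW arrays, 120, 136 and 172 in exercise arrays and 125, 97.8 and 122 in vehicle arrays. Every combination array exceeded every vehicle array, while array 1 lay inside the range of the GW and exercise arrays. By 1425326_at and 1439459_x_at, combination array 1 read 68.7 and 56.5, and combination arrays 2 and 3 read 157 and 172 and 123 and 165. Vehicle arrays read 48.1 to 53.9 and 48.5 to 73.4, so by 1439459_x_at combination array 1 lay inside the vehicle range. The log2 difference of the combination from vehicle was 1.22 ± 0.26 for 1451666_at (adjusted p = 0.0988), and 1.27 ± 0.42 and 0.79 ± 0.35 for the other probe sets, none past the threshold of 0.05.

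Me1, cytosolic malic enzyme, had high and even signals. By 1430307_a_at it read 3329, 3419 and 3371 in combination arrays, 2701, 3273 and 3104 in GW arrays, 2730, 2638 and 2729 in exercise arrays and 2334, 2944 and 3283 in vehicle arrays. By 1416632_at the combination averaged 3137 ± 156, GW 2986 ± 347, exercise 2562 ± 46.5 and vehicle 3068 ± 300 (SD, n = 3 arrays each). The exercise group had the lowest mean by both probe sets, and its arrays lay below all 3 combination arrays. The log2 difference of the combination from exercise was 0.32 ± 0.11 and 0.29 ± 0.09, neither of which passed (adjusted p = 0.375 and 0.359).

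Acacb, the carboxylase at the mitochondrial membrane, read 1620, 1754 and 1716 in combination arrays, 1900, 1738 and 1842 in GW arrays, 1494, 1581 and 1349 in exercise arrays and 1787, 1491 and 1381 in vehicle arrays. The 4 groups lay close together, and vehicle overlapped all of the others. Its log2 difference from vehicle was 0.14 in the combination, with a 95% interval of -0.07 to 0.35, and 0.24 in the GW group, with an interval of 0.03 to 0.45. A change beyond 1.5-fold in either direction lies outside both intervals.

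Fasn, the enzyme that assembles palmitate, differed widely among the combination arrays. Its signals were 291, 847 and 1543 in combination arrays, 225, 271 and 293 in GW arrays, 180, 218 and 179 in exercise arrays and 201, 91.7 and 131 in vehicle arrays. Array 1 of the combination lay inside the range of the GW arrays, while arrays 2 and 3 were 6.00 and 10.9 times the vehicle mean. All 3 combination arrays and all 3 GW arrays were above every exercise and every vehicle array. Fasn rose in the combination against vehicle, with a log2 difference of 2.43 ± 0.42 (5.39-fold, adjusted p = 0.0312). The call was lost in 8 of the 12 fits that left out 1 array, with an adjusted p of up to 0.187, and the log2 difference was 1.11 with combination array 1 alone. The group means were 894 ± 628 in the combination, 263 ± 34.9 with GW, 192 ± 22.2 with exercise and 141 ± 55.2 with vehicle (SD, n = 3 arrays each), and exercise and vehicle overlapped.

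Elovl6, which lengthens palmitate to stearate, read 40.2, 63.9 and 129 by 1417404_at in combination arrays, 42.0, 43.7 and 25.9 in GW arrays, 23.5, 44.2 and 30.5 in exercise arrays and 25.9, 17.3 and 30.1 in vehicle arrays. Its combination arrays lay above all vehicle arrays but not above all GW or exercise arrays. The log2 difference from vehicle was 1.54 ± 0.45 (adjusted p = 0.256). Elovl5, an elongase of polyunsaturated chains, read 112, 199 and 197 by 1437211_x_at in combination arrays, 188, 129 and 111 in GW arrays, 120, 117 and 114 in exercise arrays and 181, 145 and 122 in vehicle arrays. By this probe set the 4 groups overlapped except that exercise lay below vehicle, whereas by 1415840_at exercise, at 71.8, 113 and 146, overlapped vehicle, at 127, 97.9 and 83.0. Its log2 difference of the combination from vehicle was 0.15 ± 0.25 by 1437211_x_at and 0.36 ± 0.29 by 1415840_at (adjusted p = 0.890 and 0.709).

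Scd1 is the main stearoyl-CoA desaturase of liver and fat. By 1415964_at it read 2235, 4115 and 6193 in combination arrays, 1170, 1681 and 1880 in GW arrays, 1123, 1184 and 1362 in exercise arrays and 1420, 844 and 1209 in vehicle arrays. By 1415965_at it read 81.4, 211 and 306 in combination arrays, 45.4, 45.5 and 54.6 in GW arrays, 60.7, 58.9 and 69.7 in exercise arrays and 32.4, 29.4 and 30.3 in vehicle arrays. By both probe sets all 3 combination arrays lay above the other 9. Scd1 rose in the combination against vehicle by a log2 difference of 1.77 ± 0.28 (3.40-fold, adjusted p = 0.0181) and 2.50 ± 0.37 (5.67-fold, adjusted p = 0.00827). The probe sets disagreed for exercise alone: by 1415964_at the exercise and vehicle arrays overlapped (log2 difference 0.11 ± 0.28), and by 1415965_at every exercise array exceeded every vehicle array (log2 difference 1.04 ± 0.37, adjusted p = 0.354), which did not pass.

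Scd2, the related desaturase that is best known from brain, had another order of arrays. By 1415822_at it read 450, 269 and 285 in combination arrays, 278, 250 and 280 in GW arrays, 192, 143 and 190 in exercise arrays and 227, 162 and 153 in vehicle arrays. By 1415823_at it read 236, 115 and 113 in combination arrays, 83.1, 146 and 152 in GW arrays, 108, 76.1 and 85.4 in exercise arrays and 69.3, 68.3 and 54.8 in vehicle arrays. Combination array 1, whose summed fat cell signal lay within the vehicle range, was the highest by both, and by 1415824_at as well, where it read 71.4 against 23.7 to 37.5 in vehicle arrays. By 1415822_at all 6 arrays with GW1516 lay above all 6 without it.

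Against vehicle, 3 of the 18 probe sets were called higher in the combination, the 2 of Scd1 and that of Fasn, and none lower. Of all 13575 probe sets 0.155% were called, 0.147% as higher. The difference was above 0 for 18 of 18, and the median log2 difference was 1.06, against 0.00 over all probe sets tested. All 3 combination arrays lay above all 3 vehicle arrays in 13 of 18, against 7.94% of all probe sets. Counted by array, combination array 1 exceeded every vehicle array in 13 of 18, and arrays 2 and 3 did in 16 each. Above all 9 arrays of the other groups were 7 of 18 for combination array 1 and 12 for each of arrays 2 and 3. The highest of the 12 arrays was combination array 3 for 9 probe sets, combination array 1 for 4, combination array 2 for 3, and GW array 1 and vehicle array 3 for 1 each. The lowest was vehicle array 2 for 7 probe sets, exercise array 1 for 3, and no other array for more than 2. The 7 were both probe sets of Scd1 and of Thrsp, those tested of Fasn and Elovl6, and 1 of Acly. For these counts by single array the share over all probe sets was not taken, so they only describe the 18. Vehicle array 2 also had the lowest Adipoq signal, 210, and the lowest summed fat cell signal, 1841, of the 12 arrays. The part of fat cell RNA in its low values was not tested.

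**Figure D2:**
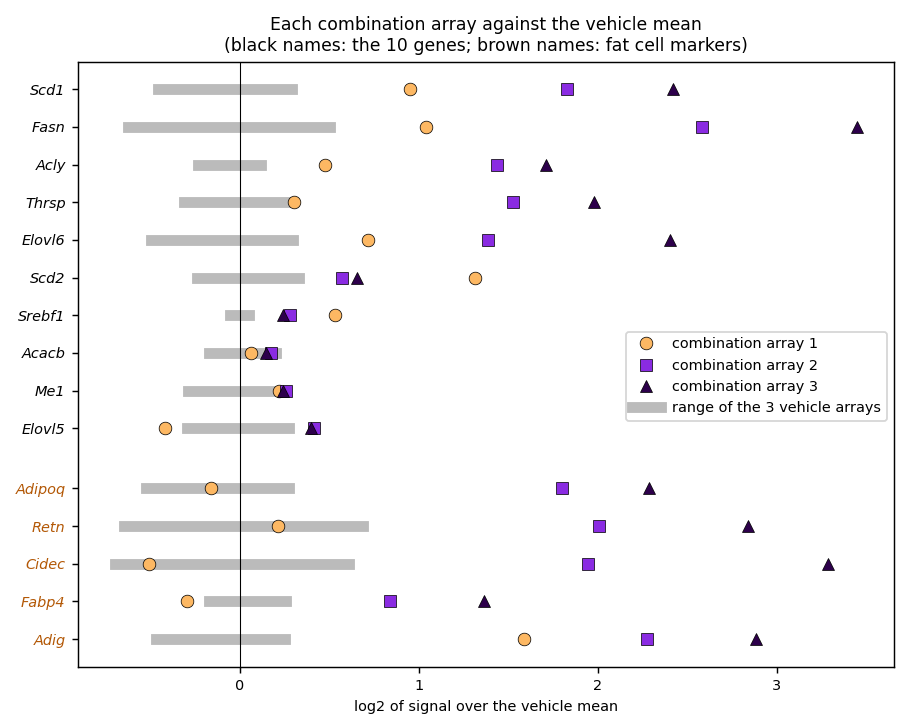
Signal of each combination array over the mean of the vehicle arrays, on a log2 axis, for the 10 genes (black names) and 5 fat cell markers (brown names), 1 probe set a gene. Points are the 3 combination arrays and grey bars the range of the 3 vehicle arrays. Array 3 is the rightmost point for Scd1, Fasn, Acly, Thrsp and Elovl6 and for all 5 markers, and array 1 is for Scd2 and Srebf1.

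The 3 calls depended on single arrays, among them combination arrays 2 and 3. Without array 2 alone the adjusted p was 0.112 for Scd1 1415964_at, 0.0858 for Scd1 1415965_at and 0.187 for Fasn, and without array 3 alone 0.0772, 0.0572 and 0.106. Leaving out vehicle array 2 also ended them (0.109, 0.0536 and 0.167), and Fasn was in addition at 0.0503 to 0.0598 without GW array 2 or 3, exercise array 1 or 3 or vehicle array 3. In a further fit, combination array 1 stood alone for its group and was assumed to vary like the other groups. The log2 difference of Scd1 from vehicle was then 0.98 ± 0.27 by 1415964_at and 1.41 ± 0.39 by 1415965_at, and that of Fasn 1.11 ± 0.34. With the mean log2 signal of 5 fat cell markers (Adipoq, Retn, Cidec, Fabp4, Adig) as a covariate, 0 of 18 passed. The log2 differences were 0.75 and 1.34 for Scd1 and 0.81 for Fasn. Calls over all probe sets with this covariate are not given here, so the loss cannot be called particular to the 18. With the Adipoq signal alone as the covariate, Scd1 1415964_at kept its call at 0.94 (adjusted p = 0.0312) and the other 2 did not. The 95% intervals of Scd1 and Fasn stayed above 0 with array 1 alone, from 0.39 to 1.57 and 0.57 to 2.24 for Scd1 and from 0.39 to 1.84 for Fasn, whereas those of Thrsp, Acly and Elovl6 reached below 0. Acly 1439459_x_at and Elovl5 1437211_x_at turned negative with array 1 alone, at -0.10 and -0.40. The part of fat cell RNA in the values of arrays 2 and 3 was not tested further.

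For Scd2 the differences were larger in these fits than over all arrays. By 1415822_at its log2 difference of the combination from vehicle was 0.87 ± 0.21 over all arrays, 1.21 ± 0.28 with the fat cell covariate and 1.34 ± 0.25 with array 1 alone, and by 1415823_at 1.18 ± 0.30, 1.77 ± 0.39 and 1.89 ± 0.36. None of these passed (adjusted p = 0.147, 0.161, 0.0810, 0.169, 0.131 and 0.0840).

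**Figure D3:**
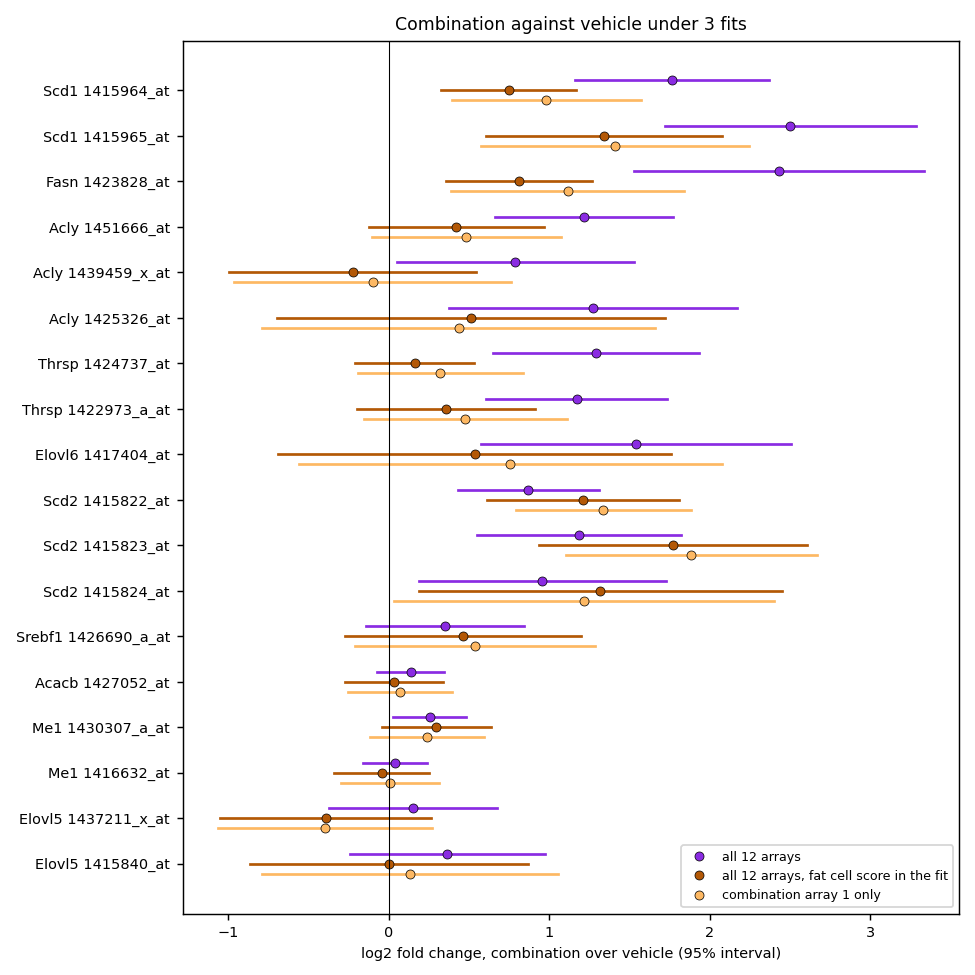
Log2 difference of the combination from vehicle for the 18 probe sets tested, with 95% intervals, over all 12 arrays (purple), with the fat cell score in the fit (brown) and with combination array 1 only (orange). For Scd1, Fasn, Acly, Thrsp and Elovl6 the brown and orange points lie left of the purple ones, and for the 3 probe sets of Scd2 they lie right of them.

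GW1516 without training passed the threshold for none of the 18 probe sets by limma, against 0.0958% of all probe sets. At an unadjusted p under 0.05 there were 4, namely Scd2 1415822_at and 1415823_at, Fasn and Acacb, against 6.42% of all. The difference from vehicle was above 0 for 14 of 18, with a median log2 difference of 0.36 against 0.00 over all tested. All 3 GW arrays lay above all 3 vehicle arrays in 5 of 18, against 5.54% of all. Fasn had a log2 difference of 0.96 ± 0.42, Scd2 of 0.59 ± 0.21 and 0.94 ± 0.30, and Scd1 of 0.45 ± 0.28 and 0.66 ± 0.37. The fat cell sum was within 2142 to 2464 in GW arrays, and 2574, 1841 and 1951 in vehicle arrays 1, 2 and 3. Vehicle arrays 2 and 3 thus lay below every GW array in this sum, and its part in these differences was not tested. Acly, Thrsp, Elovl6, the third Scd2 probe set, Acacb and Me1 1430307_a_at lay between 0.09 and 0.61. Both probe sets of Elovl5, Me1 1416632_at and Srebf1 lay between -0.08 and -0.03.

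Training without the drug passed the threshold for none of the 18 by limma, against 0.0147% of all probe sets, and 2 of 18 had an unadjusted p under 0.05, Scd1 1415965_at and Me1 1416632_at, against 10.4% of all. The median log2 difference from vehicle was -0.02, and 8 of 18 were above 0. Me1 1416632_at was lower in exercise arrays, at -0.26 ± 0.09 (adjusted p = 0.371), and Srebf1 at -0.40 ± 0.23 (adjusted p = 0.559). The values above 0, from 0.06 to 1.04, were those of Fasn, Elovl6 and both probe sets of Scd1, and of 1 probe set each of Acly, Thrsp, Scd2 and Elovl5. The other probe sets of Acly, Thrsp, Scd2, Elovl5 and Me1, and that of Acacb, lay below 0.

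The combination against exercise is the comparison for GW1516 in trained mice. Scd1 1415964_at alone of the 18 rose, by a log2 difference of 1.66 ± 0.28 (3.16-fold, adjusted p = 0.0266), against 0.162% of all probe sets called, 0.0958% as higher, and with combination array 1 alone it was 0.87 ± 0.27 (adjusted p = 0.525). Leaving out combination array 2 or 3, or any exercise array, took its adjusted p to between 0.0977 and 0.171. The difference was above 0 for 18 of 18, with a median of 0.91 against -0.01 over all tested, and the groups did not overlap in 13, against 7.58% of all. Fasn, both Thrsp probe sets, the other Scd1 probe set, the 3 of Acly, the 3 of Scd2, Elovl6 and Srebf1 lay between 0.71 and 1.92, and Acacb, Me1 and Elovl5 between 0.20 and 0.49. Against GW, which isolates training under the drug, none of the 18 and 0% of all probe sets passed by limma, and 7 of 18 had an unadjusted p under 0.05 against 5.75% of all. These 7 were both probe sets of Scd1 and of Thrsp, Fasn, and Acly 1451666_at and 1425326_at, with log2 differences between 0.80 and 1.85. The third of Acly, Elovl6, Srebf1, Scd2, Elovl5 and Me1 lay between 0.08 and 0.93, and Acacb at -0.11. The comparisons of the combination with vehicle, exercise and GW share its 3 arrays.

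The test of whether the drug effect differed between trained and sedentary mice passed for none of the 18 by limma, against 0% of all. At an unadjusted p under 0.05 there were 3 of 18, Scd1 1415964_at, Srebf1 and Me1 1416632_at, against 6.79% of all. For Scd1 1415964_at the difference between the 2 drug effects was 1.21 on the log2 scale, with a 95% interval of 0.35 to 2.06 (adjusted p = 0.707). For Srebf1 it was 0.78, with an interval of 0.09 to 1.48, and for Fasn 0.96, with an interval of -0.32 to 2.24 (adjusted p = 0.727 and 0.766). Scd2 1415823_at and Acacb lay at -0.23 and -0.04, and the remaining probe sets of Scd1, Scd2, Acly, Thrsp, Elovl5, Elovl6 and Me1 between 0.23 and 1.01.

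**Figure D4:**
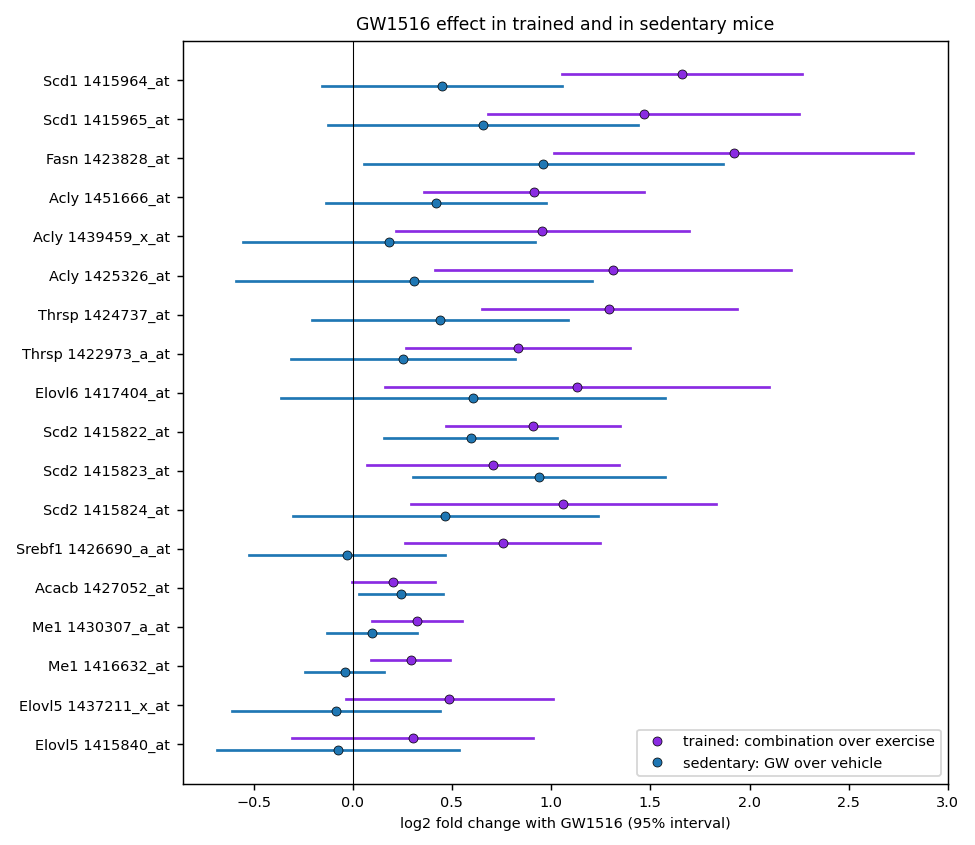
Log2 difference with GW1516 in trained mice (combination over exercise, purple) and in sedentary mice (GW over vehicle, blue) for the 18 probe sets tested, with 95% intervals. The purple point is right of the blue one in all but Scd2 1415823_at and Acacb, and the intervals of each pair overlap, by a narrow margin for Scd1 1415964_at.

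Over trained and sedentary mice together, 2 of the 18 probe sets were called higher with GW1516 and none lower. Of all probe sets 0.317% were called, 0.236% as higher. Scd1 1415964_at rose by a log2 difference of 1.05 ± 0.20 (2.08-fold, adjusted p = 0.0375). Scd2 1415822_at rose by 0.75 ± 0.14 (1.68-fold, adjusted p = 0.0405). In Scd2 1415822_at and Fasn the 6 arrays with the drug did not overlap the 6 without it, against 0.398% of all probe sets. Fasn, at 1.44 ± 0.30, did not pass (adjusted p = 0.0625). The remaining probe sets, of Scd1, Scd2, Acly, Thrsp, Elovl5, Elovl6, Me1, Acacb and Srebf1, lay between 0.11 and 1.06, and none of them passed. With combination array 1 alone for its group, Scd2 1415822_at was at 0.98 ± 0.15 and still passed (adjusted p = 0.0334), while Scd1 1415964_at was at 0.66 ± 0.17 (adjusted p = 0.292). With the fat cell covariate, Scd2 1415822_at (0.90 ± 0.16, adjusted p = 0.0437) and Fasn (0.74 ± 0.12, adjusted p = 0.0255) passed, and Scd1 1415964_at did not (0.61 ± 0.11, adjusted p = 0.0536). Of single arrays, each one except combination array 1 and vehicle array 1 took Scd2 1415822_at past 0.05 when left out, to adjusted p values up to 0.134, with log2 differences between 0.63 and 0.84 over all 12. Scd1 1415964_at stayed under 0.05 only without combination array 1, GW array 1 or vehicle array 1, and reached up to 0.130 without any other. The training effect over both drug conditions passed for none of the 18 by limma, with 5 at an unadjusted p under 0.05, against 0.0147% and 9.09% of all. These 5 were both probe sets of Scd1, Fasn, Thrsp 1422973_a_at and Acly 1451666_at, with log2 differences between 0.55 and 1.44. Elovl6 and the other probe sets of Acly, Thrsp and Scd2, with Elovl5 1415840_at and Me1 1430307_a_at, lay between 0.05 and 0.67. Srebf1, Acacb, Elovl5 1437211_x_at and Me1 1416632_at lay between -0.09 and -0.01.

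Among neighbours of the pathway 1 gene passed. Of 28 listed enzymes and partners, 16 genes with 29 probe sets were tested, and the only one called in any comparison was Mlycd, malonyl-CoA decarboxylase, which breaks down the malonyl-CoA that carboxylases make. Mlycd read 880, 879 and 837 in combination arrays, 881, 818 and 935 in GW arrays, 604, 587 and 719 in exercise arrays and 498, 482 and 478 in vehicle arrays. All arrays with GW1516 lay above all without it, and combination array 1 lay as high as arrays 2 and 3. Mlycd rose against vehicle by 0.83 ± 0.10 in the combination and 0.85 ± 0.10 in the GW group on the log2 scale (adjusted p = 0.00104 and 0.000911), and by 0.65 ± 0.07 over both drug groups (adjusted p = 0.000348). The median log2 difference of the 29 probe sets in the combination against vehicle was 0.17.

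Hacd2, a dehydratase of the elongation cycle, read 112, 218 and 345 in combination arrays, against 79.8 to 108 in GW arrays, 87.0 to 103 in exercise arrays and 83.0 to 106 in vehicle arrays, and its difference from exercise did not pass (log2 1.06 ± 0.30, adjusted p = 0.273). Its arrays stood in the order of Adipoq. Mid1ip1, the paralog of Thrsp that binds acetyl-CoA carboxylase, read 397, 355 and 345 in combination arrays, below all of 561, 537 and 639 in GW arrays, 490, 420 and 486 in exercise arrays and 625, 467 and 591 in vehicle arrays. Its log2 difference of the combination from GW was -0.66 ± 0.13 (adjusted p = 0.287). Acaca, the cytosolic carboxylase, and Fads2, a desaturase of polyunsaturated chains, lay below the tested level.

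Of 15 listed regulators of lipogenesis, 12 genes with 20 probe sets were tested, and none passed in any of the 8 comparisons by limma. In the combination against vehicle 1 of 20 had an unadjusted p under 0.05, against 9.98% of all probe sets. The smallest p there came from 1 of the 2 probe sets of Rxra, the partner of nuclear receptors such as PPARδ, at a log2 difference of 0.76 ± 0.30 (adjusted p = 0.438), which was 0.28 without vehicle array 1, while the other was at 0.14 ± 0.09. Next was 1 of the 2 probe sets of Mlx, the partner of the carbohydrate response factor Mlxipl, at 0.40 ± 0.19 (adjusted p = 0.510), and the other was at -0.13 ± 0.20. Of 21 sterol synthesis genes, 15 with 22 probe sets were tested and none passed in any comparison by limma, with 2 of 22 at an unadjusted p under 0.05 in the combination against vehicle. Fdps, farnesyl diphosphate synthase, was at 0.44 ± 0.14 in the combination against vehicle (adjusted p = 0.310). Genes known to respond to PPARδ (Pdk4, Ucp3, Angptl4, Acadl, Slc25a20, Cpt1a, Slc27a1) passed in 6 of 9 probe sets in the combination and 5 of 9 in the GW group against vehicle, all higher. Of all probe sets 0.155% and 0.0958% were called in these comparisons. With exercise 0 of 9 passed by limma, and 4 of 9 had an unadjusted p under 0.05, against 10.4% of all probe sets.

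The shared course of the 10 genes was summarised per array as the mean of their standardised log2 signals, 1 probe set a gene. It was 0.39, 1.19 and 1.56 in combination arrays 1, 2 and 3, against -0.03, 0.26 and 0.15 in GW arrays, -0.65, -0.65 and -0.64 in exercise arrays and -0.23, -0.79 and -0.56 in vehicle arrays. All arrays with the drug were above all arrays without it. Across the 12 arrays Scd1, Thrsp and Fasn followed it with r of 0.96, 0.96 and 0.95, and Scd2 and Srebf1 with 0.69 and 0.53. Outside the list, the 10 genes most like it were Cdo1, Mgll, Pex11a, Lipe, Plin2, Etfb, Cpt1a, Dusp7, Ech1 and Retn, with r from 0.94 to 0.87. All these points share their groups and arrays, so the values are a description.

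Without combination arrays 2 and 3, over 10 arrays, the order among those 10 genes changed. Cpt1a, the carnitine palmitoyltransferase that readies long fatty acids for entry into mitochondria, had r of 0.91, and Etfb, an electron carrier of beta-oxidation, 0.85. Retn, the fat cell hormone resistin, had 0.45, and Lipe, hormone-sensitive lipase, 0.67. The rest lay between these pairs, with Dusp7 and Pex11a at 0.82, Ech1, Mgll and Cdo1 at 0.76 and Plin2 at 0.75. Of these, Cdo1, Mgll and Plin2 were highest in combination array 3 and next in array 2, as Retn was. Cpt1a read 152, 150 and 195 in combination arrays, 98.0, 143 and 128 in GW arrays, 53.5, 48.3 and 82.5 in exercise arrays and 63.2, 58.9 and 58.3 in vehicle arrays. Retn read 150, 521 and 929 in combination arrays, 166, 168 and 145 in GW arrays, 128, 114 and 211 in exercise arrays and 209, 82.8 and 97.0 in vehicle arrays. Cpt1a was high in all arrays with the drug, and Retn in combination arrays 2 and 3 only.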

How the data were processed

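Expression was measured on 12 arrays, 3 in each of 4 groups taken from the sample titles. The authors deposited linear intensity values from MAS5, per the submitters' processing notes (version not given in the sources used here). The mean of each array without the lowest and highest 2% of values was 200.093 to 200.098. Detection calls and raw images were not used here.

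Values were taken to log2 as they were. Leaving aside 64 controls, the upper 60% of 22626 by mean log2 signal, 13575 probe sets, were tested in limma 3.58.1 (R 4.3.3). The fit had the 4 groups, all 12 arrays and variances moderated along an intensity trend (8 residual and 6.84 prior degrees of freedom). All p-values are two-sided and were adjusted by Benjamini-Hochberg across the probe sets tested, with a threshold of 0.05. The median standard error was 0.208 on the log2 scale, and 3 arrays a group limit the precision. Main effects average both drug groups or both trained groups. The script was tested on simulated data.

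The platform annotation gave 1 symbol to 20393 probe sets, several to 691 and none to 1606. By the naming rule, all 10 genes are named in every comparison, with values for the probe sets that bear on it and ranges for the rest, and of each neighbour list the called ones or those with the smallest p. Adig, Acaca, Fads2 and the per-array values of Cpt1a and Retn were picked after their values were seen. The genes, lists and tests were chosen with earlier results of these data known. Same-numbered arrays did not deviate together (18 pairs, r of -0.05 to 0.10), so array number was no block.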

Additional observations from a re-analysis of the deposited data

How the results depend on the processing

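Counts of the 18 probe sets called were 3 in the combination against vehicle, 1 against exercise and 2 for the drug over both conditions. They were the same with quantile or cyclic loess normalization, a pseudocount of 10.5 and no filter on low signal, and within 1.5 times with the filter at the upper 40%. Against vehicle the count was 0 without an intensity trend, 1 with a robust prior, 7 with array weights, 0 with the fat cell score as covariate, 1 with the Adipoq signal as covariate, 0 with only the groups compared and 0 with combination array 1 alone. Against exercise it was 0 without a trend, 0 with a robust prior, 0 with either covariate, 0 with array 1 alone, 2 with only the groups compared and 2 with array number as a replicate block. For the drug it was 0 without a trend, 1 with a robust prior, 4 with array weights and 1 with array 1 alone. With array number as a replicate block, the counts against vehicle and for the drug were 3 and 2; the arrays share only a number. Leaving out each array in turn gave 0 to 6 against vehicle, 0 to 6 against exercise, 0 to 6 for the drug, 0 to 6 for the combination against GW and 0 to 3 for training over both conditions. The highest values came without combination array 1, which leaves the 2 combination arrays with high fat cell markers. Calls over all probe sets under the same alternatives are not given here. A change in these counts can therefore not be called particular to the 18. For GW against vehicle, exercise against vehicle and the interaction the count was 0 under every alternative run. No difference that passed changed direction under any alternative run. Of the 18 probe sets, 3 changed sign under at least 1 alternative in the combination against vehicle: Acly 1439459_x_at (-0.23 with the fat cell score), Elovl5 1437211_x_at (-0.39 with the fat cell score, -0.17 with Adipoq) and Me1 1416632_at (-0.05 with the fat cell score, -0.07 with Adipoq). In the other comparisons 6 did for GW against vehicle, 8 for exercise against vehicle, 1 for the combination against exercise, 6 against GW, 9 for the interaction, 2 for the drug and 5 for training. The size of the array set limits all of these. The calls among the 18, at limma adjusted p values of 0.00827 to 0.0405, were all lost without an intensity trend. Some were also lost with a robust prior.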
